A study of Mus musculus with 2 samples.

Results

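The 9 genes described here, Tbx21, Eomes, Bcl6, Prdm1, Zeb2, Id2, Id3, Zbtb16 and Zfp683, encode transcriptional regulators that direct the fate of lymphocytes. They were taken as a named list of gene columns, and all 9 were present among the 22337 gene symbols of the expression table. Single-cell RNA sequencing was performed on immune cells isolated by density gradient from Bm12 hearts transplanted into B6 recipients and harvested at postoperative day 14. A Bm12 donor differs from B6 at an MHC class II gene, and the graft is rejected chronically. Of the hearts, 3 carried the label BM12 WT (IL-33+, hearts numbered 1 to 3) and 3 the label BM12 IL33 KO (IL-33-, hearts numbered 4 to 6). The groups shared the Bm12 donor strain, the recipient strain and the day, and differed in the il33 alleles of the donor. Each heart was marked by its own hashtag antibody and the hearts were sequenced together. The knockout was carried by the donor heart, and recipient cells that entered the graft kept their own il33 alleles.

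T-bet (Tbx21) and Eomesodermin (Eomes) are T-box factors that drive the effector programs of NK cells, CD8+ T cells and Th1 cells. Zeb2 acts downstream of T-bet in terminal NK and CD8+ T cell differentiation and is a lineage factor of monocytes and macrophages. Blimp1 (Prdm1) and Bcl6 repress each other's programs, with Bcl6 leading to follicular helper T cells and germinal center B cells and Blimp1 to plasma cells, effector T cells and effector Tregs. Id2 and Id3 lack a DNA-binding domain and hold E proteins off their E-box sites. Id2 is required by NK cells and other innate lymphoid cells, and Id3 marks naive and memory T cells. PLZF (Zbtb16) instructs NKT cells and innate-like T cells, and Hobit (Zfp683) supports tissue residency.

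The members lie apart from each other in the genome (GENCODE vM21, GRCm38). Tbx21 spans chr11:97098071-97115331 on the minus strand, Eomes chr9:118478212-118486132 on the plus strand, Bcl6 chr16:23965052-23988852 on the minus strand and Prdm1 chr10:44437177-44528501 on the minus strand. Zeb2 spans chr2:44983632-45117395 on the minus strand, Id2 chr12:25093799-25097140 on the minus strand and Id3 chr4:136143497-136145755 on the plus strand. Zbtb16 spans chr9:48654297-48836222 on the minus strand and Zfp683 chr4:134053838-134058996 on the plus strand. The 250 bases upstream of the RefSeq start (GRCm38.p6) are shown for the T-box pair and the Id pair, the related members that the results set side by side. They are written 5′ to 3′ on the strand of the gene, with each E-box (CANNTG, the site that E proteins bind and Id proteins leave unoccupied) in capitals. The RefSeq starts of Id2 and Id3 lie inside the GENCODE spans of these genes. The windows lie at chr11:97115332-97115581 for Tbx21, chr9:118477939-118478188 for Eomes, chr12:25096093-25096342 for Id2 and chr4:136143572-136143821 for Id3.
Tbx21: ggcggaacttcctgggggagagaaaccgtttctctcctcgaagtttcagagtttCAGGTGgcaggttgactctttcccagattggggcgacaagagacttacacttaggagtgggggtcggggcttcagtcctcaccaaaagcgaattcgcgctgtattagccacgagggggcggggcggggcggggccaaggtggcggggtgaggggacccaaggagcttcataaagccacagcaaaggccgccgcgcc
Eomes: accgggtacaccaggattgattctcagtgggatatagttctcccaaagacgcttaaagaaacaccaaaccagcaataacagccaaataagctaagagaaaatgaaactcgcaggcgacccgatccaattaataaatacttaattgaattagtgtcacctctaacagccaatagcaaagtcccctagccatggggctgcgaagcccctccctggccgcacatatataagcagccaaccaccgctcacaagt
Id2: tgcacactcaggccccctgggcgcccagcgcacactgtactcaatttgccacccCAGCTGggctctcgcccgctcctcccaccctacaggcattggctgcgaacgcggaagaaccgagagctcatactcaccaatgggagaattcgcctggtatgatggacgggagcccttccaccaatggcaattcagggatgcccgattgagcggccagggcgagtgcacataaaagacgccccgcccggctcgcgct
Id3: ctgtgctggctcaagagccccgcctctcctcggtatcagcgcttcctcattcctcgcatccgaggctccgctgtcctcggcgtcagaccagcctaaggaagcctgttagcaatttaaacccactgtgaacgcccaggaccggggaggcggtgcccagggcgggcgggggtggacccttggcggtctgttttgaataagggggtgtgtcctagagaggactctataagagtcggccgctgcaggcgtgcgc
The letters CANNTG read the same on both strands. They occurred once each upstream of Tbx21 and Id2 and were not in the windows of Eomes and Id3, while 66.2% of the 32851 RefSeq windows of this length held a match. The letters GGTGTG, the core of a T-box site, were searched on both strands and occurred in the window of Id3 and not in those of Tbx21, Eomes and Id2, against 16.3% of all windows. RefSeq promoter entries were matched for 7 of the 9 members.

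The table held 4441 cells with 1500 to 14977 UMIs each (median 3699), no barcode was shared between hearts, and the hearts gave 230 to 1666 cells and 908163 to 7013143 UMIs. Unique molecular identifiers (UMIs) count captured transcripts, and levels are given as CPM, UMIs scaled to a common total per cell and then averaged over all cells of 1 type from 1 heart. Because 3′ UMIs carry no transcript length, each gene is compared only with itself across types. Cell types are those of the deposited annotation, which came from clusters built on all genes, the members included, so levels across types are described and not tested. Il33 did not check the genotype labels. It gave 128 UMIs in 310 fibroblasts of hearts labelled IL-33+ and 17 UMIs in 65 fibroblasts of hearts labelled IL-33-, and whether the 3′ tag lies within the deleted stretch is not given in the sources used here. In the annotated types, at least 2 of 5 NK markers were detected in 87.6% of NK cells and 89.0% of NKT cells. At least 2 of 5 T cell markers were detected in 3.54% and 28.2%. NKT cells thus showed NK markers more often than T cell markers, and what the label rests on was not tested. At least 2 T cell and 2 macrophage markers were found together in 235 cells, 52 of them among the 83 unconventional T cells, and results there carry that mixture. At least 2 NK markers were also detected in 41.7% of Tcm, against 20.2% of Trm-like cells, 11.9% of Tn and 9.79% of Tem/eff.

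**Figure D1:**
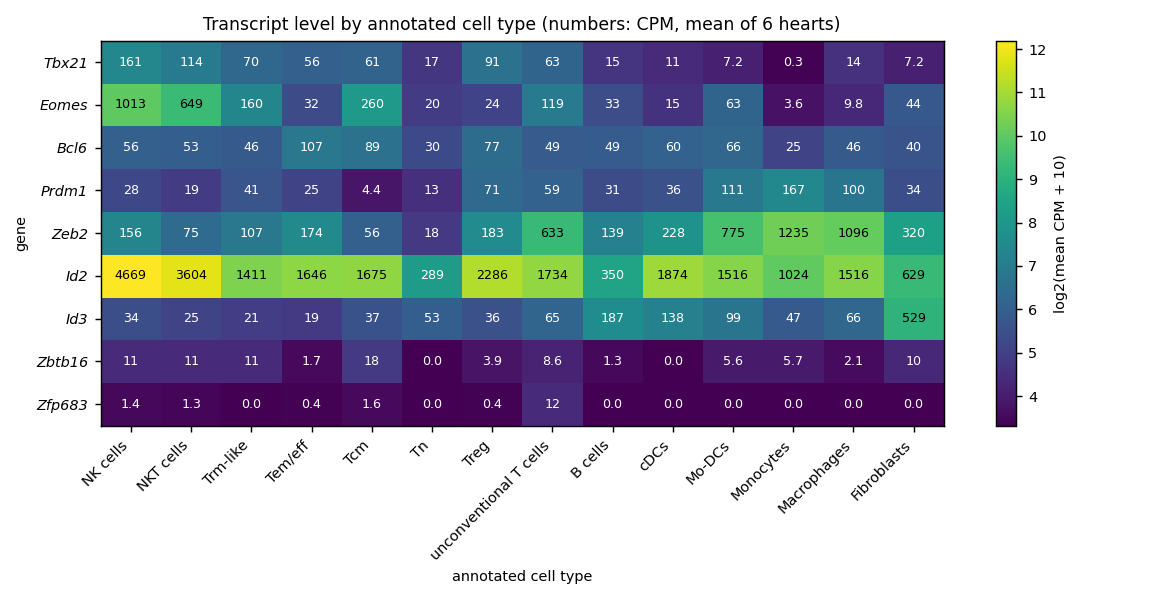
Level of each of the 9 genes (rows) in each of the 14 annotated cell types (columns), with color for log2(mean CPM + 10) and the printed number giving CPM as the mean of 6 hearts. Eomes and Id2 peak in NK cells at 1013 and 4669 CPM, Zeb2 and Prdm1 in monocytes at 1235 and 167 CPM, and Id3 in fibroblasts at 529 CPM.

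Both T-box genes were highest in NK cells, and Eomes separated NK and NKT cells from every other type. In NK cells Eomes averaged 1013 ± 251 CPM (SD, n = 6 hearts), in NKT cells it averaged 648.7 ± 176 CPM, against 260.4 ± 117 CPM in Tcm. The range over hearts in NKT cells, 458 to 954 CPM, did not overlap that of Tcm, 139 to 410 CPM, and NK cells lay above NKT cells in 6 of 6 hearts, although those ranges overlapped. Trm-like cells followed with 159.6 ± 99.2 CPM and did not differ from Tcm beyond their spread. In the 71 Tcm with a Cd8a or Cd8b1 UMI and none of Cd4, Eomes averaged 144 CPM. The part of cells with NK markers in the Tcm level was not tested. Thinned to 1500 UMIs a cell, Eomes was detected in 63.8% of NK cells, 49.0% of NKT cells, 25.6% of Tcm and 17.7% of Trm-like cells. Before thinning those shares were 76.0%, 74.9%, 43.6% and 24.3%. In types that should lack the gene, the share after thinning was 1.30% of monocytes, 1.86% of macrophages, 2.45% of B cells and 4.53% of fibroblasts (median depths of 6709.5, 6606, 2292 and 5790 UMIs before it). Treg (4.18%) and Tn (2.88%) lay within that range and are read as background. Tem/eff as a whole (4.59%) lay just above it. Monocyte-derived dendritic cells, left out of that range, reached 7.35% (15 of 204 cells), so Tem/eff as a whole were not read as above background.

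Tbx21 followed a flatter gradient. It was highest in NK cells with 160.9 ± 29.9 CPM, then in NKT cells with 114 ± 29.3 CPM, and reached 91.2 ± 38.5 CPM in Tregs and 70.2 ± 38.8 CPM in Trm-like cells. NK cells lay above NKT cells in 6 of 6 hearts, but from NKT cells down to Tem/eff (55.8 ± 14.0 CPM) each neighbor was higher in only 3 or 4 of 6 hearts. The step from Tem/eff to Tn (16.5 ± 23.9 CPM) held in 6 of 6 hearts. Tregs and Tem/eff, with little Eomes, were above the same types for Tbx21, with detection after thinning in 12.9% of Tregs and 9.79% of Tem/eff against 1.6% of fibroblasts and 1.05% of B cells. Before thinning the shares were 21.7%, 24.5%, 5.33% and 1.4%.

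Zeb2 was highest in monocytes and macrophages. It averaged 1235 ± 220 CPM in monocytes, 1096 ± 204 CPM in macrophages and 775 ± 340 CPM in monocyte-derived dendritic cells (Mo-DCs), and these neighbors overlapped. The name Mo-DC is that of the annotation. Of these cells 63.7% held at least 2 macrophage markers, 27.9% at least 2 neutrophil markers and 0.98% at least 2 markers of conventional dendritic cells. The unconventional T cells reached 633 ± 208 CPM, with at least 2 macrophage markers in 94.0% of them. The part of these markers in that level was not tested. Zeb2 was not confined to myeloid types. Fibroblasts followed with 320 ± 130 CPM, above conventional dendritic cells with 228 ± 135 CPM in 4 of 6 hearts. Among the other lymphocytes Zeb2 lay between 183 ± 79.3 CPM in Tregs and 18.0 ± 9.75 CPM in Tn, with 156 ± 25.7 CPM for NK cells beside 75.3 ± 25.8 CPM for NKT cells. NK cells lay above NKT cells for Zeb2 in 6 of 6 hearts (NKT minus NK, -1.0 on the log2(CPM + 10) scale).

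Prdm1 and Bcl6 were highest in different types, while Tregs and Mo-DCs were among the 4 highest types for both. Prdm1 averaged 167 ± 76.9 CPM in monocytes, 111 ± 80.7 CPM in Mo-DCs, 99.9 ± 39.3 CPM in macrophages and 71.4 ± 30.6 CPM in Tregs, which were its highest lymphocytes. The Mo-DC mean included hearts with 4 and 7 Mo-DCs and was 70.1 CPM over the 4 hearts with at least 10, so its place ahead of Tregs rests on those hearts. Bcl6 averaged 107 ± 45.2 CPM in Tem/eff, 89.1 ± 32.2 CPM in Tcm and 77.0 ± 41.1 CPM in Tregs. In Mo-DCs Bcl6 averaged 65.8 ± 58.9 CPM. No pair of neighbors in its order lay apart beyond their spread. Tcm, the second for Bcl6, was the lowest type for Prdm1, at 4.36 ± 5.56 CPM and 5 of 266 cells with a UMI. Prdm1 in Tregs was above that in Tem/eff in 6 of 6 hearts (Tem/eff minus Treg, -1.28 on the log2(CPM + 10) scale). Within Tem/eff, 33.3% of cells with a Prdm1 UMI and 34.0% of cells without one held a Bcl6 UMI. Over types these shares went both ways. They were 25.0% and 16.6% in Tregs, 28.6% and 10.8% in Mo-DCs, and 15.2% and 22.5% in fibroblasts. They were not thinned.

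Id2 and Id3 were high in different types. Id2 was highest in NK cells with 4669 ± 576 CPM, followed by NKT cells with 3604 ± 728 CPM and by Tregs with 2286 ± 828 CPM, and was lowest in B cells at 349.5 ± 73.3 CPM and Tn at 289.5 ± 41.3 CPM. The ranges of fibroblasts (483 to 968 CPM) and B cells (263 to 453 CPM) did not overlap, while other neighbors did. Id3 was highest in fibroblasts at 529 ± 74.3 CPM, apart from every other type, followed by B cells at 187 ± 100 CPM and conventional dendritic cells (cDCs) at 138 ± 46.1 CPM. At least 2 endothelial markers were detected in 21.9% of the annotated fibroblasts. These markers summed to 52.3 and 405 CPM in hearts 5 and 6, the hearts with the lowest Id3, and to 1154 to 1790 CPM in the others. The part of endothelial cells in the Id3 level was not tested. Tn, at 52.9 ± 19.0 CPM, held the most Id3 of the annotated conventional T cells, and Tem/eff the least of all types, 18.6 ± 11.8 CPM. From Tn to Tcm, Id2 was higher by 2.39 on the log2(CPM + 10) scale in 6 of 6 hearts, and Id3 was higher in Tcm in 2 of 6.

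**Figure D2:**
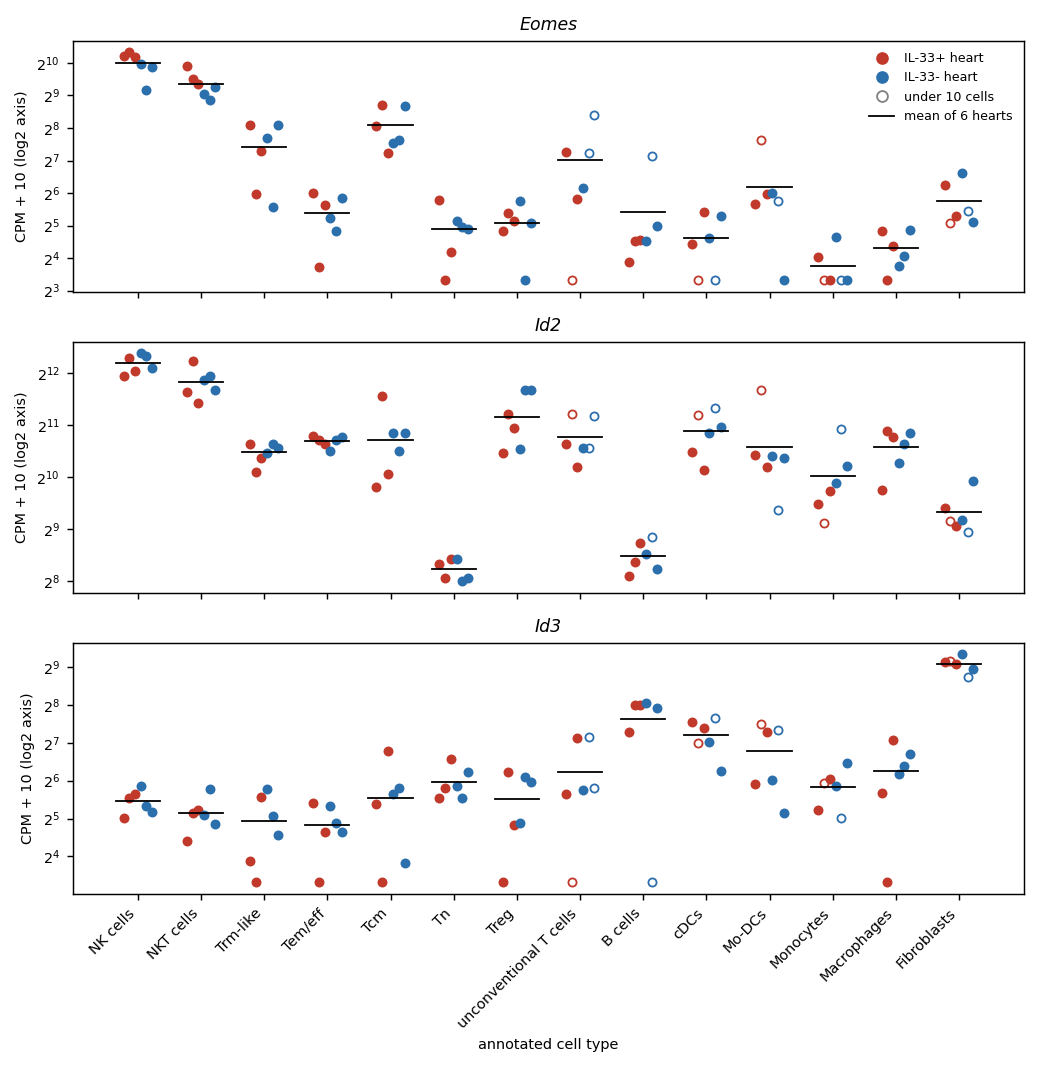
Level of Eomes, Id2 and Id3 (CPM + 10, log2 axis) in each heart (points, red IL-33+ and blue IL-33-, open where the heart gave under 10 cells of the type) across the 14 annotated types, with a line at the mean of 6 hearts. Eomes in NK and NKT cells lies above all hearts of Tcm, Id2 is lowest in Tn and B cells, and Id3 is highest in fibroblasts.

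Zbtb16 and Zfp683 were barely detected. Zbtb16 gave 128 UMIs in 110 cells, with the highest mean in Tcm, 18.4 ± 16.4 CPM, and 0 UMIs in 243 Tn and 171 cDCs, which allows up to 1.23% and 1.75% of cells with a UMI. This limits cells with a UMI, not cells that express the gene. NKT cells, the type that PLZF is known for, averaged 10.7 ± 4.96 CPM, close to NK cells at 10.6 ± 7.07 CPM and fibroblasts at 10.1 ± 12.3 CPM. Their share of cells with a UMI, 5.48%, fell to 1.44% after thinning, beside 1.93% of NK cells and 0.800% of fibroblasts. Zfp683 gave 11 UMIs in the whole table and 0 in the 362 Trm-like cells, which allows up to 0.83% of cells with a UMI. With so few UMIs, no difference between types could be read for either gene.

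Over the 14 types, profiles of log2(mean CPM + 10) were compared by Pearson's r among 6307 genes. The types share libraries and clusters, so these values describe and do not test. Prdm1 and Zeb2 were the most alike of the members (r = 0.88), followed by Tbx21 and Eomes (r = 0.77) and Tbx21 and Id2 (r = 0.65), while Tbx21 and Id3 gave r = -0.63 and Id2 and Id3 r = -0.51. The genes most like Tbx21 were Cysltr2, Sytl3, Nkg7, Tnfrsf9 and Ifng (r = 0.97 to 0.94), and those most like Eomes were Klre1, Nrarp, Klra7, Samd3 and Klra9 (r = 0.97 to 0.94). Ifng, encoding the Th1 and NK cytokine IFN-γ, is a known target of T-bet, and Klre1, Klra7 and Klra9 encode NK receptors. Prdm1 was most like Mafg, Rhbdf2, Slc16a3, Adcy7 and Zeb2 (r = 0.89 to 0.88), and Zeb2 like Mir22hg, Sat1, Rab1a, Wsb2 and Zfand5 (r = 0.96 to 0.94). Id2 was most like Myl6, Tyk2, Nfil3, H2-D1 and Chst11 (r = 0.91 to 0.87), and Id3 like Ptk2, S1pr3, Dennd5b, Gaa and Psd3 (r = 0.91 to 0.87). Bcl6 had the loosest neighbors, Ube2s, Denr, Cyp51, Adora2a and Gm37529 (r = 0.87 to 0.76).

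Within annotated types, cells were also divided by genes outside the list and compared within hearts. The annotation sets which cells enter these comparisons, and the dividing genes set the arms. CD8 cells had a UMI of Cd8a or Cd8b1 and none of Cd4, CD4 cells the reverse, among cells annotated Tn, Tcm, Tem/eff or Trm-like (372 and 290 cells, 6 hearts, with median depths of 3445 and 4889 UMIs). Of the 7 members tested, 3 were called at an adjusted p of 0.05 or less (limma with heart as a block, Benjamini-Hochberg adjusted over all genes), where 5.97% of the 10071 genes tested were called. Eomes was higher in CD8 cells, and Bcl6 and Id2 were lower.

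Eomes in CD8 cells was 219, 21.4 and 131 CPM in hearts 1 to 3 and 178, 92.0 and 279.7 CPM in hearts 4 to 6. In CD4 cells it was 7.24, 3.00 and 17.1 CPM and 29.3, 18.8 and 31.0 CPM. CD8 cells were higher in 6 of 6 hearts, with heart 2 low in both arms, and the difference was 2.38 on the log2(CPM + 10) scale (SE 0.29, adjusted p = 3.4e-06 by limma). Bcl6 in CD8 cells was 17.3, 83.0, 33.3, 33.7, 58.3 and 64.8 CPM in hearts 1 to 6, and in CD4 cells 63.4, 86.0, 156, 86.3, 121 and 117 CPM. It was lower in CD8 cells in 6 of 6 hearts, narrowly so in heart 2 (log2 difference -1.04, SE 0.25, limma adjusted p = 0.0092, and 0.081 without heart 3). Id2 in CD8 cells was 1464, 641, 876, 1272, 1085 and 1180.5 CPM, and in CD4 cells 1722, 1499, 1313, 1065, 1558 and 1827 CPM. It was lower in 5 of 6 hearts, all but heart 4 (log2 difference -0.49, SE 0.12, limma adjusted p = 0.014). This call was lost without the cells of mixed markers (-0.34, limma adjusted p = 0.11), without heart 5 (0.055) or heart 6 (0.072), with a pseudocount of 1 CPM (0.064) and without the filter on UMIs (0.124).

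The Eomes difference was found within Trm-like cells and within Tem/eff. In Trm-like cells it averaged 258 CPM over 188 CD8 cells and 6.27 CPM over 45 CD4 cells, higher in 5 of 5 hearts with at least 5 cells in each arm. In Tem/eff it averaged 96.6 CPM over 55 CD8 cells and 18.8 CPM over 203 CD4 cells, higher in 4 of 4 hearts. In Tcm the order was opposite, with 144 CPM over 71 CD8 cells and 246 CPM over 6 CD4 cells. No heart gave 5 Tcm in each arm. Eomes in Tn averaged 23.4 CPM over 58 CD8 cells and 0 CPM over 36 CD4 cells, higher in 1 of 2 hearts. Bcl6 in Tem/eff averaged 39.9 CPM in CD8 and 137 CPM in CD4 cells and was lower in CD8 cells in 4 of 4 hearts, but in Trm-like cells in 3 of 5. Id2 was mixed, at 1467 against 1732 CPM in Tem/eff and 1385 against 1031 CPM in Trm-like cells. Of the remaining members Zeb2 gave a log2 difference of -0.58 (SE 0.22, limma adjusted p = 0.13), which limma-voom on summed UMIs called (adjusted p = 0.0011), and Tbx21, Prdm1 and Id3 lay between 0.08 and 0.57 without a call. Zbtb16 and Zfp683 had 4 and 2 UMIs and were not tested.

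**Figure D3:**
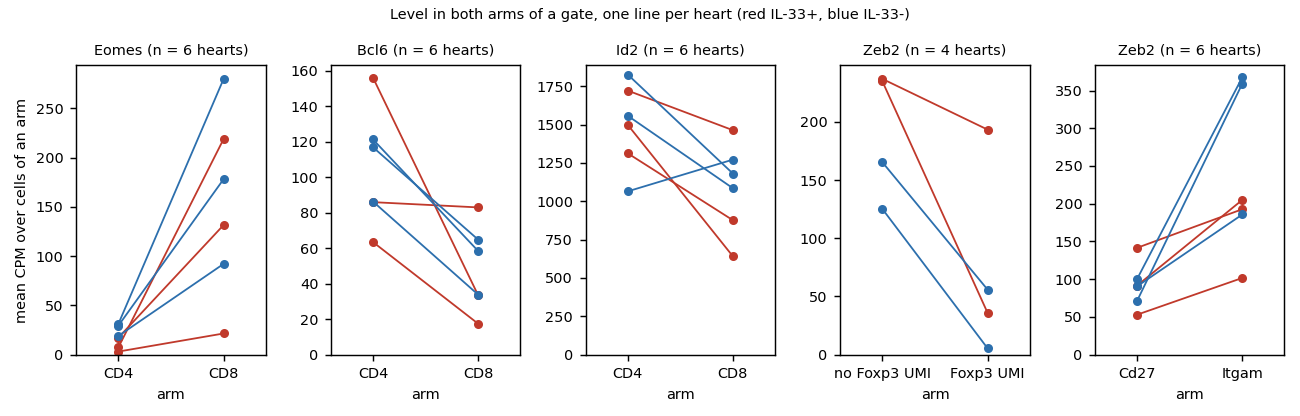
Mean CPM in both arms of a division of cells by genes outside the list, with 1 line per heart (red IL-33+, blue IL-33-). Eomes is higher and Bcl6 lower in CD8 than in CD4 T cells in 6 of 6 hearts, Id2 is lower in 5 of 6, and Zeb2 is lower in Foxp3-positive cells in 4 of 4 hearts and higher in Itgam than in Cd27 NK cells in 6 of 6.

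Cells with a Cd4 UMI and a Foxp3 UMI (42 cells) were compared with Cd4 cells that had no Foxp3 UMI (349 cells), among Tn, Tcm, Tem/eff and Tregs. Foxp3 encodes the lineage factor of Tregs. Cells annotated Tregs included 146 with a Cd4 UMI and none of Cd8a or Cd8b1, so many of them lay in the Foxp3-negative arm. The arms thus divide cells by detection of Foxp3 and do not set Tregs against other cells. Only hearts 1, 3, 4 and 5 had at least 5 Foxp3-positive cells, and these held 6, 5, 14 and 11 of them. Of 7 members tested, 1 was called, beside 1.03% of 8622 genes. Zeb2 in Foxp3-positive cells was 35.8, 193, 5.33 and 55.8 CPM, and in Foxp3-negative cells 235, 237, 125 and 165 CPM, lower in 4 of 4 hearts (log2 difference -1.81, SE 0.50, limma adjusted p = 0.032). It rested on 9 UMIs in the small arm, and the median difference over all genes tested was -0.30 (0.38 by limma-voom, which gave Zeb2 -1.52 with an adjusted p of 0.093). Without heart 1 or heart 4 the adjusted p was 0.12 or 0.086. By annotation, Zeb2 in Cd4 cells averaged 191 CPM in Tregs, 192 CPM in Tem/eff, 137 CPM in 6 Tcm and 33.5 CPM in Tn. Annotated Tregs were thus not lower than Tem/eff. Prdm1, at 102, 125, 82.5 and 65.6 CPM against 56.1, 48.4, 35.6 and 45.2 CPM, had arms that did not overlap (log2 difference 0.86, SE 0.60, limma adjusted p = 0.54), on 11 and 46 UMIs. Bcl6 (log2 difference -1.54, SE 0.61, limma adjusted p = 0.16) and Id3 (-1.53, SE 0.58, 0.13) were not called, Id3 with 1 UMI in Foxp3-positive cells. Tbx21, Eomes and Id2 gave limma adjusted p values of 0.50, 0.40 and 0.85. Zbtb16 and Zfp683 had at most 1 UMI.

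NK cells lose CD27 and gain CD11b (Itgam) as they mature. NK cells with a UMI of Itgam and none of Cd27 (305 cells) were compared with NK cells of the reverse pattern (154 cells) in 6 hearts, at median depths of 2582 and 3282 UMIs. The part of depth in these comparisons was not tested. Of 8 members tested, 1 was called, beside 0.784% of 8168 genes. Zeb2 in Itgam cells was 102, 193 and 205 CPM in hearts 1 to 3 and 368, 359 and 186 CPM in hearts 4 to 6. In Cd27 cells it was 52.8, 141 and 91.4 CPM and 100.1, 71.2 and 90.4 CPM. Itgam cells were higher in 6 of 6 hearts (log2 difference 1.21, SE 0.30, limma adjusted p = 0.043), and the adjusted p was 0.132, 0.285, 0.125 and 0.107 when heart 3, 4, 5 or 6 was left out. Bcl6 averaged 32.3 CPM in Itgam and 76.5 CPM in Cd27 cells, lower in 5 of 6 hearts (log2 difference -1.16, SE 0.48, limma adjusted p = 0.42). Eomes differed by 0.34 (SE 0.16, limma adjusted p = 0.51). Tbx21, Prdm1, Id2, Id3 and Zbtb16 lay between -0.20 and 0.09, and Zfp683 had no UMI in either arm.

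Other genes of these programs, listed with the members, were read in the same fits. Between CD8 and CD4 cells, 6 of 12 effector genes tested were called higher in CD8 cells and none lower, led by Gzma, Gzmk, Ccl5, Gzmb and Prf1 (log2 differences 3.39, 3.31, 3.21, 3.19 and 1.43), which encode cytotoxic granule proteins and a chemokine. Of 7 genes of the Blimp1 and Bcl6 network, Il10, Irf4 and Il21 were called lower in CD8 cells (-2.20, -1.42 and -1.14). Of 15 other lineage factors, 1 was higher (Runx3, the CD8 lineage factor, by 1.38) and 7 were lower, among them Maf (-2.96), Tox (-1.34) and Bhlhe40 (-1.25). Among memory and quiescence genes, Klf2 (0.80) was called higher and Ccr7 (-2.02) lower. In Foxp3-positive cells 4 of 11 memory and quiescence genes were lower, Tcf7 (-3.68), Ccr7 (-3.56), Klf2 (-2.13) and Satb1 (-2.01), with the median of the list at -2.04 beside -0.30 over all genes tested. In the same comparison Gzmb (2.59) and Il10 (1.82) were higher, Ifng (-2.30) and Pdcd1 (-1.97) were lower, while of 14 other lineage factors Ikzf2 (1.85) and Maf (1.43) were higher beside Foxp3 itself, and Bhlhe40 (-1.38) and Rora (-1.36) were lower. In Itgam against Cd27 NK cells 6 of 12 effector genes were higher and none lower, among them Cx3cr1 (2.25), Klrg1 (2.11), Prf1 (1.52), Gzmb (1.4) and Ccl5 (1.22), with the median of the list at 1.16 beside 0.0045 over all genes tested. Irf8 (0.46) was also higher. The E proteins Tcf3, Tcf4 and Tcf12 and Id1 were tested in all 3 comparisons and none was called.

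cDCs were divided by cDC1 markers (Xcr1, Clec9a or Cadm1) against cDC2 markers (Cd209a or Cd300a). Hearts 3 and 4 alone had at least 5 cells in each arm, so no test was made. In these hearts Id2, which cDC1 require, was 2232 and 2309 CPM in cDC1-marker cells and 617 and 839 CPM in cDC2-marker cells. Zeb2 was 211 and 30.9 CPM in cDC1-marker cells and 347 and 438 CPM in cDC2-marker cells. Id3 was 67.2 and 64.2 CPM against 219.7 and 139 CPM. Neither Id2, Zeb2 nor Id3 overlapped between the arms in the hearts shown, on 5 and 11 cDC1-marker cells. Tbx21 (0 and 0 against 49.7 and 11.5 CPM) and Prdm1 (0 and 0 against 9.91 and 13.1 CPM) did not overlap either, on 7 and 2 UMIs. Eomes and Bcl6 overlapped. With 2 hearts, arms part easily by chance, and the share over all genes was not computed. Nothing is read from the lack of overlap.

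The comparison of IL-33+ with IL-33- hearts asks whether loss of donor IL-33 went with a change in these regulators. Each type was fitted over the 6 hearts and all genes with at least 10 UMIs and a UMI in at least 3 hearts, which left 96 of 126 combinations of member and type. Of the 14 types, Bcl6, Zeb2, Id2 and Id3 could be tested in all, Eomes in 13, Prdm1 in 12, Tbx21 in 10, Zbtb16 in 5 and Zfp683 in none. No combination was called at an adjusted p of 0.05 (limma), beside 0.00884% of all gene tests in the 14 types, and the lowest adjusted p was 0.29. An unadjusted p of 0.05 or less was found in 6 combinations (6.25%), beside 4.71% of all tests, and with at least a 2-fold change in 2 (2.08%), beside 2.67%. The groups did not overlap in 7 combinations (7.29%), beside 9.81% of all tests. These shares lay near those of all genes. Limma-voom on summed UMIs called 1 combination, Id2 in NK cells (log2 difference -0.27, adjusted p = 0.036).

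Eomes in NK cells was 1167, 1278 and 1140.05 CPM in IL-33+ hearts and 996, 569.7 and 927 CPM in IL-33- hearts. All 3 IL-33+ hearts lay above all 3 IL-33- hearts, and the difference was 0.56 on the log2(CPM + 10) scale (SE 0.15, limma adjusted p = 0.29). In NKT cells it was 954, 722 and 638 CPM in IL-33+ hearts and 517, 458 and 603 CPM in IL-33- hearts, again without overlap (log2 difference 0.53, SE 0.16, limma adjusted p = 0.85). Without heart 5 the NK difference was 0.31. In NK cells the median depth moved with the groups, 2547 to 2737 UMIs a cell in IL-33+ and 2936 to 3297 in IL-33- hearts, and so did the summed level of the 4 monocyte markers, 469 to 527 and 735 to 753 CPM. The cDC and plasma cell markers were higher in NK cells of IL-33+ hearts, at 35.1 to 74.5 CPM against 18.9 to 30.9 CPM and 393 to 455 CPM against 311 to 352 CPM. In NKT cells depth (5589 to 6008 and 5167 to 5742 UMIs a cell) and monocyte markers overlapped, while neutrophil markers (0 to 15.2 and 18.9 to 21.0 CPM) and fibroblast markers (251 to 504 and 185 to 237 CPM) did not. The part of depth and these markers in the Eomes values was not tested. Tbx21 was 134, 139.6 and 215 CPM in NK cells of IL-33+ hearts and 162, 171 and 144 CPM in those of IL-33- hearts, with a log2 difference of 0.01 (SE 0.21, limma adjusted p = 0.997).

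**Figure D4:**
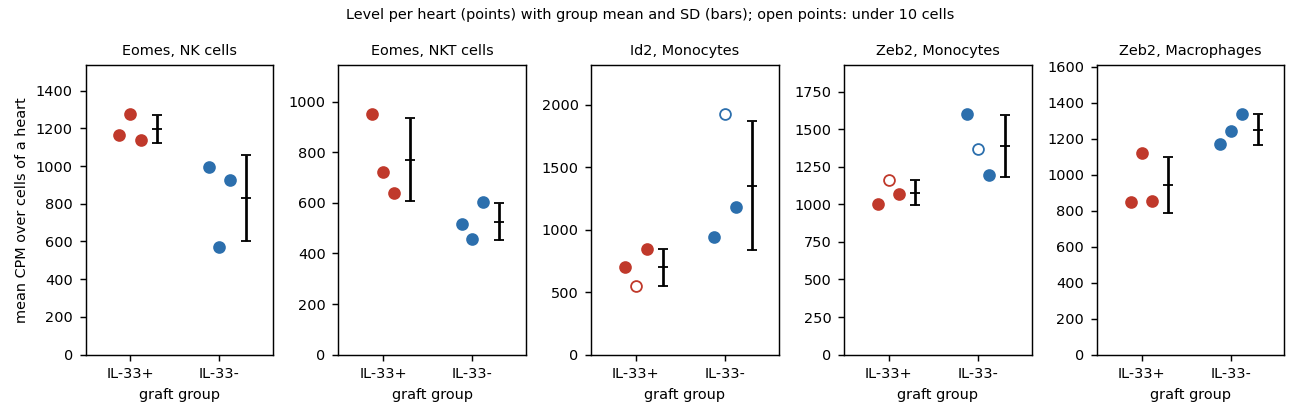
Mean CPM of 1 cell type per heart (points, open where the heart gave under 10 cells), by graft group, with the group mean and SD beside them (n = 3 hearts a group). Eomes is higher in IL-33+ hearts in NK and NKT cells, and Id2 in monocytes and Zeb2 in monocytes and macrophages are lower, with no overlap of the groups and no adjusted p at or under 0.05.

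By detection of Itgam and Cd27, the balance of the NK arms moved with the graft group. Itgam cells made up 68.7%, 65.5% and 78.7% of the cells of both arms in IL-33+ hearts 1 to 3, and 38.8%, 38.1% and 46.3% in IL-33- hearts 4 to 6. The groups did not overlap, and the smallest p that an exact permutation test allows with 3 hearts against 3 is 0.1. The arms held 305 and 154 of 931 NK cells, and IL-33- hearts gave 49, 21 and 54 of these. They were set by detection of a UMI. Median depth of NK cells also did not overlap between the groups, at 2547 to 2737 UMIs in IL-33+ and 2936 to 3297 in IL-33- hearts. The part of depth in the Itgam share was not tested. Within the Cd27 arm, the groups did not overlap for Eomes and Id2 among the 9 members, beside 9.11% of 8168 genes. Eomes was 1063 to 1510 CPM in IL-33+ and 365 to 932 CPM in IL-33- hearts, and Id2 had the opposite order, 3852 to 4512 CPM and 4583 to 5524 CPM. Within the Itgam arm all members overlapped, beside 11.2% of genes that did not, and Eomes was 1187 to 1507 CPM in IL-33+ and 874 to 1215 CPM in IL-33- hearts. Zeb2, the member called between the arms, overlapped between the graft groups in all NK cells. It was 134, 163 and 178 CPM in IL-33+ and 163, 182 and 116 CPM in IL-33- hearts.

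**Figure D5:**
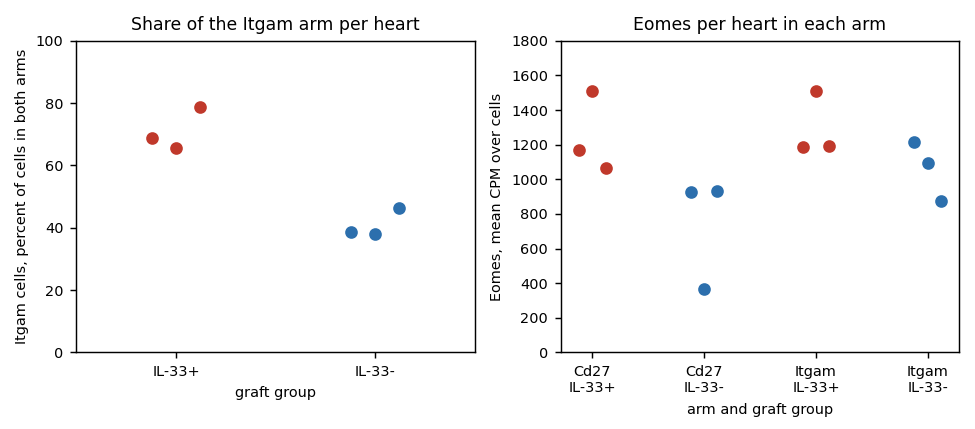
Left, Itgam cells as a percentage of NK cells in the Itgam and Cd27 arms, by heart and graft group, and right, Eomes (mean CPM over cells) by heart in each arm and graft group. The Itgam share is 65.5 to 78.7% in IL-33+ and 38.1 to 46.3% in IL-33- hearts. Eomes does not overlap between the groups in the Cd27 arm, as for 9.11% of 8168 genes, and overlaps in the Itgam arm. Its lowest value, 365 CPM, comes from 13 Cd27 cells of heart 5.

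Id2 in monocytes and Zeb2 in monocytes and macrophages had lower values in IL-33+ hearts, without passing the adjusted threshold. In other myeloid types the groups overlapped. The sign was the same for Id2 in cDCs (log2 difference -0.44) and macrophages (-0.11) and for Zeb2 in Mo-DCs (-0.49). It was opposite for Id2 in Mo-DCs (0.72) and Zeb2 in cDCs (1.54). The extremes of Id2 in Mo-DCs were hearts 2 and 5, at 3268 and 654 CPM in 4 and 7 cells. Zeb2 in cDCs had 0 UMIs in the 9 cells of heart 5. Id2 in monocytes was 700.4, 545 and 845 CPM in IL-33+ and 942, 1928 and 1183 CPM in IL-33- hearts (log2 difference -0.90, SE 0.23, limma adjusted p = 0.32). All IL-33+ values lay below all IL-33- values, but heart 2 gave 5 monocytes and heart 5, the highest, gave 7. Without heart 3 the combination was called (log2 difference -1.05, limma adjusted p = 0.012). Summed monocyte markers moved with it, 3793 to 4881 CPM in IL-33+ and 5019 to 5570 CPM in IL-33- hearts, and so did fibroblast markers, 203 to 231 and 51.3 to 168 CPM. Without the hearts that gave under 10 monocytes the difference was -0.45 (limma adjusted p = 0.96). Zeb2 in macrophages was 851, 1121 and 851 CPM in IL-33+ and 1172, 1243 and 1340.1 CPM in IL-33- hearts, without overlap (log2 difference -0.42, SE 0.19, limma adjusted p = 0.99). Zeb2 in monocytes was 1002, 1164 and 1072 CPM against 1605, 1371 and 1197 CPM, also without overlap (log2 difference -0.36, SE 0.20, limma adjusted p = 0.97). In macrophages the summed levels of the 9 macrophage markers overlapped between groups, while those of 5 endothelial markers (76.0 to 116 CPM in IL-33+ and 40.4 to 50.4 CPM in IL-33- hearts) and 5 Treg markers (53.8 to 109 and 28.7 to 45.8 CPM) did not. The part of these markers in the results was not tested.

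The other combinations rested on few transcripts. Eomes in unconventional T cells was 142, 0 and 45.9 CPM in IL-33+ and 61.1, 139 and 327 CPM in IL-33- hearts (log2 difference -1.80, SE 0.74, limma adjusted p = 0.98), with overlap and with hearts 2, 5 and 6 giving 2, 7 and 4 cells. The difference was -0.73 without heart 2, -0.35 without mixed-marker cells and -0.52 by limma-voom. Zbtb16 in Tcm was 0, 29.8 and 0 CPM in IL-33+ and 29.3, 12.9 and 38.2 CPM in IL-33- hearts, with overlap (log2 difference -1.15, SE 0.54, limma adjusted p = 0.95). Tbx21 in cDCs was 23.7, 11.6 and 20.3 CPM against 3.35, 0 and 7.42 CPM, and Bcl6 in B cells 66.8, 86.4 and 55.8 CPM against 49.5, 0 and 36.8 CPM. Both had no overlap (limma adjusted p = 0.78 and 0.84), and the 0 for Bcl6 came from a heart with 4 B cells. Of the program lists, 571 tests over the 14 types gave 1 call, Gzma in Trm-like cells, higher in IL-33+ hearts (log2 difference 2.05, SE 0.27, limma adjusted p = 0.00036).

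Cells were also read for pairs of members in the same cell, as a description. In Tem/eff, 63.8% of 80 cells with a Tbx21 UMI also had a Zeb2 UMI, against 40.5% of cells without one. In NK cells the same shares were 29.6% and 29.7%, and in NKT cells 33.8% and 31.1%. In NK cells, Eomes was found in 78.0% of cells with a Tbx21 UMI and 75.1% of cells without. Deeper cells show more of every gene, and these shares were not thinned.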

How the data were processed

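Single-cell 3′ RNA sequencing of hashtagged immune cells from 6 Bm12 heart grafts was processed by the authors with Cell Ranger on mm10 and Partek Flow 10.0.23.0425, with limits on counts, genes and mitochondrial share per cell. The deposited values are log2(CPM + 1) per gene and cell. The deposited cell annotation gave type, hashtag and graft group. The size of 1 UMI in each cell was read from its lowest values, and 99.9% of low values lay within 0.05 of a whole UMI. For 20 symbols the values hold a mean, and no member is among them. The heart was the replicate, and nothing beyond the labels states separate recipients. CPM was averaged over all cells of 1 type (or arm) from 1 heart, 10 was added, and the result was compared on the log2 scale with limma 3.58.1 (R 4.3.3, trend), with the heart as a block between arms, and Benjamini-Hochberg adjustment over all genes tested. Fold changes on that scale understate the change of low genes. Intervals and limits from 0 UMIs cover counting error only. Hearts were taken from the hashtag numbers in the design text. All members were described in every type. Heart values are given for members with an unadjusted p of 0.05 or less, or at least 10 UMIs and no overlap. Profiles most alike were the 5 with the highest Pearson r over the 14 types, and of a list at most 5 called genes with the largest change are named. Members and lists were chosen with earlier results of these data known. The fit was tested on simulated data with known changes. The result of a gene on the memory list is not reported here.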

Additional observations from a re-analysis of the deposited data

Results flagged for a closer look

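The difference of Eomes between Itgam and Cd27 NK cells stood apart in heart 5, an IL-33- heart. There Eomes was 1093 CPM in 8 Itgam cells and 365 CPM in 13 Cd27 cells. The gap of this heart to the nearest other heart was 0.708 of the range over 6 hearts, above Dixon's 95% critical value for 6 samples. Of 11 groups of hearts looked at, this was the only one past its critical value, and chance passes about 1 group in 20.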

How the results depend on the processing

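Graft groups could not be paired because their hearts share no replicate numbers, while the arms of a division were compared within hearts. Between graft groups, 0 combinations of member and type were called with limma and 1 with limma-voom, and leaving out 1 heart gave 0 to 1 (Id2 in Tcm without heart 2, -0.80 against -0.26 with all hearts, and Id2 in monocytes without heart 3). Id2 in Tcm reversed to 0.0696 without heart 1. The count past 2-fold at an unadjusted p of 0.05 was 2. It was 1 with UMIs summed per heart, with a pseudocount of 1 or 50 CPM and without hearts of under 10 cells, 5 without the filter, 0 with at least 50 UMIs, and 2 to 6 when 1 heart was left out. Between CD8 and CD4 cells 3 members were called, and 2 to 4 when 1 heart was left out. For Foxp3 1 member was called and 0 with a pseudocount of 50 CPM, without the filter, with at least 50 UMIs, with limma-voom or without the heart block, and 0 to 1 when 1 heart was left out. For Itgam against Cd27 1 member was called and 0 with summed UMIs, a pseudocount of 1 CPM, no filter or median-centring, and 0 to 1 when 1 heart was left out. The causes were not tested. The Foxp3 comparison without mixed-marker cells had under 4 hearts and the cDC comparison had no test, so neither was run. Over all genes the calls were 10 (0 to 108 under the alternatives) between graft groups, 601 (369 to 950) for CD8 against CD4, 89 (13 to 711) for Foxp3 and 64 (11 to 121) for Itgam against Cd27. Of the calls for Itgam against Cd27, 56.2% were higher, and 41.8% with median-centring. For Foxp3 the share was 41.6%, 85.7% with limma-voom and 7.77% with a pseudocount of 1 CPM, and the cause was not tested. Eomes between CD8 and CD4 cells was called under all 15 alternatives (log2 difference 1.45 to 3.00). The type with the highest mean stayed the same for 7 of 7 members with enough UMIs (all but Zbtb16 and Zfp683) under the alternatives run. Foxp3 alternatives that left out 1 heart with at least 3 hearts remaining were chosen after seeing the data, as was the level over hearts with at least 10 cells.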
